A study of Mus musculus with 17 samples.

Results

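Lysosomal enzyme and membrane genes were followed across all libraries of the series. The set was fixed by name and held 39 of the 24498 gene symbols in the count table: 10 proteases and peptidases, 12 glycosidases and glycosaminoglycan enzymes, 9 enzymes and carriers of lipids, 6 membrane proteins, and progranulin (Grn) with the transcription factor Tfeb. All 39 were found in the table, and all 39 passed the filter on low counts in both fits described here. Bulk sequencing of poly(A) RNA had been done on dorsal hippocampus, in slices with the dentate gyrus and the fields CA1, CA2 and CA3. Mice had either an intact (WT) or a knocked-out (KO) Acss2 gene, whose product, acetyl-CoA synthetase 2, turns acetate into acetyl-CoA. Tau extracted from brains of people with Alzheimer's disease (Tau), or its vehicle phosphate-buffered saline (PBS), had been injected into the right dorsal hippocampus when the mice were 6 months old. Per the study's methods, molecular work was done 6 months after the injection. The 17 libraries fell into 6 groups, male WT PBS (libraries 791, 792 and 793), male WT Tau (771, 772 and 773), male KO PBS (751, 752 and 753), male KO Tau (711, 712 and 713), female WT Tau (331 and 341) and female KO Tau (314, 324 and 325), and values below follow that order of libraries. WT and KO mice came from separate homozygous crosses of the same F1 stock, the sample labels state perfusion with fixative before RNA extraction while the study's methods name it only for histology, and no female mouse had received PBS, so an effect of Tau could be examined only in males. Libraries held between 14183131 and 22463635 counts, and 3 counts, the limit that a count of 0 allows, came to between 0.134 and 0.212 CPM (counts put on a common scale by the library's total), which covers counting error only. The lowest count of any member in any library was 72 (Sgsh), well above that limit. Acss2 stood at 44.0 to 54.6 CPM in WT libraries and at 3.07 to 8.81 CPM in KO libraries, so each genotype label matched the counts.

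Lysosomes are acidic compartments in which hydrolases break down proteins, glycans and lipids that arrive by endocytosis, phagocytosis and autophagy. A proton pump, the V-ATPase, keeps them acidic, membrane proteins such as Lamp1 and Lamp2 line them, and many of the enzymes are made as inactive precursors and cut to size by cathepsins. Tfeb and its relatives switch on many lysosomal genes together through a short promoter element with the core CACGTG. In the brain, neurons hold large amounts of prosaposin and cathepsins B and D, whereas cathepsin S and Cd68 are typical of microglia. Inherited loss of single members causes lysosomal storage disease with neurodegeneration, for example of Grn, Ctsd, Ppt1, Tpp1, Npc1 or Hexa. Because whole tissue was sequenced, fewer cells of a type and less RNA per cell cannot be told apart in any value below.

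Promoter windows from RefSeq (GRCm38.p6, 250 bases before to 50 bases after each annotated start) were searched on both strands for the core CACGTG and for the longer form TCACGTG, which contains the core and whose reverse complement is CACGTGA. Windows were given for 35 of the 39 members, and were not given for Npc1, Ctsb, Asah1 and Ctsh. Of the 39 member windows 12 (30.8%) held CACGTG, against 7.15% of all 32851 windows, and 10 (25.6%) held TCACGTG, against 3.77%. The 10 genes with TCACGTG were Arsa, Ctsa, Ctsd, Gaa, Gla, Glb1, Lamp1, Mcoln1, Naglu and Sgsh. The following 150 bases before the start are shown for the 6 genes called lower in females below, for 3 of those called higher, and for Lamp1, which was not called there but held the most matches. Matches to TCACGTG in either orientation are in capitals. Ctsa had 2 windows, of which 1 held TCACGTG, and only that window is shown. The first group holds matches.
Mcoln1 (chr8:3500369-3500518, plus strand): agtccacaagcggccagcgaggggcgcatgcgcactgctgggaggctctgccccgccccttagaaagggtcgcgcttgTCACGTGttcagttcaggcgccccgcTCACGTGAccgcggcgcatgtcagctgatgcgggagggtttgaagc
Glb1 (chr9:114400928-114401077, plus strand): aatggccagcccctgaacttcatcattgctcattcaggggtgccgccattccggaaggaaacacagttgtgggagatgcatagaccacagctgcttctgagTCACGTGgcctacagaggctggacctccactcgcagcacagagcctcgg
Gaa (chr11:119267813-119267962, plus strand): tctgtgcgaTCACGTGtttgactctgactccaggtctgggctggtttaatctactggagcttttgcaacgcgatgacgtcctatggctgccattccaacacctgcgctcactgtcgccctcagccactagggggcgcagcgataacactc
Ctsa (chr2:164833623-164833772, plus strand): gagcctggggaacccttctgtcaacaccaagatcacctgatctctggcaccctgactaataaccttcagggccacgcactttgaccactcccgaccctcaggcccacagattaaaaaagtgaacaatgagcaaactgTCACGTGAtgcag
Lamp1 (chr8:13159011-13159160, plus strand): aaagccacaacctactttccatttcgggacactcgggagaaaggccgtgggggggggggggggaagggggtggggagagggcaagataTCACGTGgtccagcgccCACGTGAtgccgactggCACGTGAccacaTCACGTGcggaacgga
The next windows hold no match in these letters, and the first 3 of them belong to Psap, which had a pair of windows, and Smpd1.
Psap (chr10:60277478-60277627, plus strand): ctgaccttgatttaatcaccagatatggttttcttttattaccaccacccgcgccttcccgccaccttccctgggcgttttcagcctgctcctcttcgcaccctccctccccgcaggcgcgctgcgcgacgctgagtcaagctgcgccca
Psap (chr10:60284311-60284460, plus strand): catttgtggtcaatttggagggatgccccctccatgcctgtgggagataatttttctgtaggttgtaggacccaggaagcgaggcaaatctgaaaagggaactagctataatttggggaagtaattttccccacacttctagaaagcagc
Smpd1 (chr7:105554210-105554359, plus strand): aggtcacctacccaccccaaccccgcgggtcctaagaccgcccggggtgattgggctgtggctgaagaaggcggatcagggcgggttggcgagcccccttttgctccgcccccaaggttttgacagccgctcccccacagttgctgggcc
Ctss (chr3:95526636-95526785, plus strand): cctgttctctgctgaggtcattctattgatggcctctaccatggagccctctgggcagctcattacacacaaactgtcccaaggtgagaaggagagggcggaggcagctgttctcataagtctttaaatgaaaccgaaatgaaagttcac
Npc2 (chr12:84773113-84773262, minus strand): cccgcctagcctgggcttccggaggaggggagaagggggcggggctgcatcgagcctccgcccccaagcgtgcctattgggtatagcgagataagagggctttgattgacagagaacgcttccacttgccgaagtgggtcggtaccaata
Lamp2 (chrX:38456461-38456610, minus strand): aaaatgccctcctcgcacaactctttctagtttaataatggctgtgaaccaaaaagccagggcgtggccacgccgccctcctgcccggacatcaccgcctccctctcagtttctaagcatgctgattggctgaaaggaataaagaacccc
Lamp1 had 4 matches, at 61, 45, 28 and 15 bases before its start, and Mcoln1, the gene of a lysosomal calcium channel, had 2, at 71 and 45 bases. A match is a string of letters in a window and does not show that a factor binds there.

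Levels differed widely between members. Per kilobase of exon, Psap, which encodes the precursor of 4 sphingolipid activator proteins, was the most abundant member in male WT PBS at 752 ± 34.4 CPM per kb (SD, n = 3). It was followed by Ctsd at 166 ± 3.91, Lamp1 at 120.0 ± 3.53, Ctsb at 104 ± 3.61, Ids at 96.6 ± 10.2 and Gaa at 91.3 ± 8.98 CPM per kb. The least abundant members were Tfeb at 1.74 ± 0.143, Ctsc at 1.55 ± 0.189 and Sgsh at 1.24 ± 0.208 CPM per kb. Psap, Ctsd, Lamp1 and Ctsb lay apart from one another by more than their SDs, whereas Ids lay within its own SD of both Ctsb and Gaa. The members together took 0.520% (male KO Tau 711) to 0.684% (male KO Tau 713) of all counts, so both ends of the range came from the same group. Psap alone made up 32.8% to 36.6% of member counts in 11 of the 12 male libraries, 29.7% in male KO Tau 711 and 25.4% to 28.8% in the 5 female libraries. Within groups, Scarb2 varied least between libraries (SD 0.0987 on the log2 CPM scale) and Cd63 most (0.316). Female WT Tau 331 held the highest value of all 17 libraries for 16 members, and male KO PBS 751 held the lowest for 12.

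**Figure D1:**
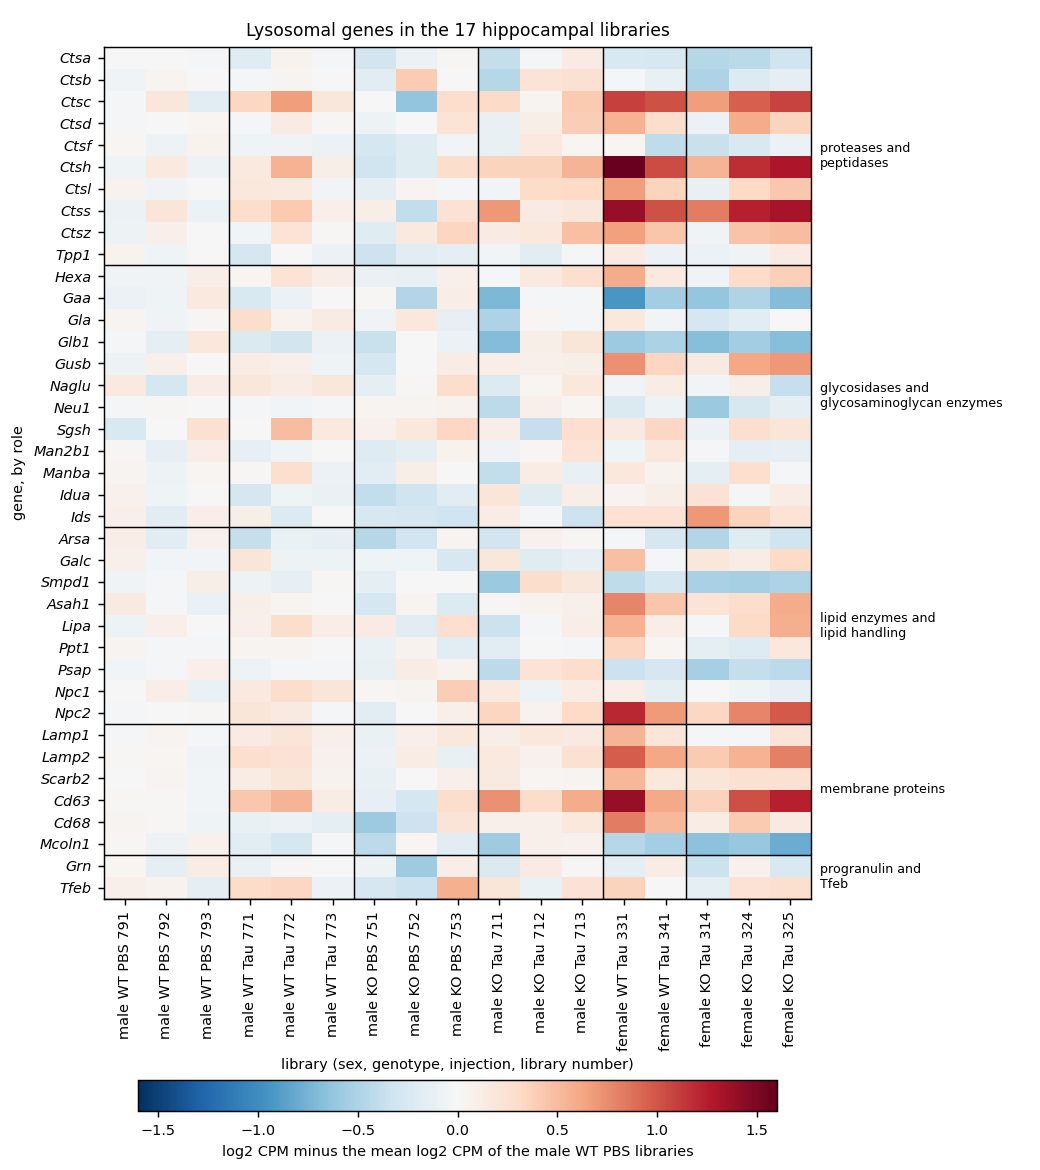
Each cell gives a member's log2 CPM in 1 library minus its mean log2 CPM over the 3 male WT PBS libraries, with genes grouped by role on the vertical axis and the 17 libraries on the horizontal axis. Differences of colour are small among male libraries, male KO Tau 711 stands apart from 712 and 713, and the 5 female libraries on the right are redder for Ctss, Ctsh, Ctsc, Npc2 and Lamp2 and bluer for Gaa, Glb1, Smpd1 and Mcoln1.

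Of the 39 members 0 passed the threshold in each of the 8 comparisons among male groups. The test was edgeR's quasi-likelihood F-test over 15098 genes in the 12 male libraries, with Benjamini-Hochberg adjustment and a threshold of 0.05 on the adjusted p. For male WT Tau against male WT PBS, which asks for the effect of Tau in WT mice, 0 of 39 members and 0% of all genes were called, while 1 member (Cd63) and 1.86% of all genes had an unadjusted p under 0.05. For male KO PBS against male WT PBS, the effect of Acss2 loss alone, 0 members and 0.00662% of all genes (Acss2 itself) were called, and 0 members and 4.42% had an unadjusted p under 0.05. For male KO Tau against male WT PBS, the comparison of both insults with neither, the shares were 0 members and 0.00662% at the adjusted threshold, and 3 members (Cd63, Npc2 and Ctsh) and 6.33% at the unadjusted one. DESeq2 and limma voom on the same libraries also called 0 members in each male comparison.

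The remaining male comparisons gave the same counts of 0. Male KO Tau against male WT Tau called 0 members and 0.00662% of all genes, with 0 members and 4.71% of genes at an unadjusted p under 0.05. Male KO Tau against male KO PBS called 0 members and 0% of all genes, with 4 members (Cd63, Ctsh, Idua and Npc2) and 7.95% of genes at an unadjusted p under 0.05. The genotype by treatment interaction called 0 members and 0% of genes, with 1 member (Idua) and 4.18% unadjusted. Averaged over treatment, KO against WT called 0 members and 0.00662% of genes, with 0 members and 4.58% unadjusted. Averaged over genotype, Tau against PBS called 0 members and 0% of genes, with 4 members (Cd63, Ctsh, Lamp2 and Npc2) and 5.38% unadjusted, all 4 higher in Tau. Beside this contrast, microglia markers were higher in 15 of 15 (median 0.16), oligodendrocyte markers in 9 of 10 (median 0.24) and choroid plexus markers in 10 of 10 (median 2.04), and 0 of them were called by edgeR, with 0, 1 and 8 at an unadjusted p under 0.05. Astrocyte markers were higher in 9 of 10 (median 0.14), border macrophage markers in 5 of 5 tested (0.23) and endothelial markers in 4 of 8 (0.01). CA3 markers were lower in 6 of 6 (median -0.24), inhibitory neuron markers in 7 of 8 (-0.18) and dentate granule cell markers in 7 of 8 (-0.13). Thalamus and striatum markers were lower in 6 of 9 (-0.27) and CA1 markers in 4 of 6 (-0.03). Of these lists too, 0 markers were called. Their part in the values of members was not tested. The median log2 fold change of the 39 members lay between 0.01 (male KO PBS against male WT PBS) and 0.05 (3 of the 8 male comparisons), beside medians of all genes between -0.01 and 0.01. Where male groups of 3 libraries are said below not to overlap, the share over all genes was not counted. Such gaps carry no test.

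Among membrane proteins, Cd63 had the smallest unadjusted p of all members in the 4 comparisons of a male Tau group with PBS. Cd63, a tetraspanin of late endosomes, lysosomes and exosomes, stood at 53.2, 53.2 and 51.1 CPM in male WT PBS, 70.8, 76.5 and 57.1 in WT Tau, 47.9, 43.3 and 63.9 in KO PBS and 87.4, 64.1 and 79.4 in KO Tau. All 6 Tau libraries lay above the 3 male WT PBS libraries, but male KO PBS 753 lay among the Tau libraries. Its log2 fold change was 0.36 (SE 0.16, edgeR unadjusted p = 0.0403, adjusted p = 1) for male WT Tau against male WT PBS, 0.56 (SE 0.16, edgeR unadjusted p = 0.00395, adjusted p = 0.783) for male KO Tau against male WT PBS and 0.53 (SE 0.15, edgeR unadjusted p = 0.00556, adjusted p = 0.55) for male KO Tau against male KO PBS. The first and the second of these share their PBS libraries, and the second and the third their Tau libraries. Averaged over genotype, the change with Tau was 0.44 (SE 0.11, edgeR unadjusted p = 0.0018, adjusted p = 0.888). With DESeq2 on only the groups compared and 1 library left out, Cd63 passed for male WT Tau against male WT PBS without library 773 (log2 fold change 0.48, SE 0.09, DESeq2 adjusted p = 9.99e-05), where 1.43% of all genes were called, and for male KO Tau against male WT PBS without 711 (0.46, SE 0.12, adjusted p = 0.00538) or without 712 (0.69, SE 0.13, adjusted p = 0.00041), where 5.33% and 0.27% were. It passed in none of the other alternatives run for male comparisons.

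Lamp2, a receptor of chaperone-mediated autophagy in the lysosomal membrane, stood at 80.8, 81.2 and 76.8 CPM in male WT PBS, 96.2, 93.8 and 83.5 in WT Tau, 74.8, 86.6 and 73.1 in KO PBS and 88.4, 83.7 and 93.9 in KO Tau. The WT Tau libraries lay above the WT PBS libraries without overlap, whereas KO PBS 752 lay inside the range of KO Tau, and the change averaged over genotype was 0.16 (SE 0.06, edgeR unadjusted p = 0.0297, adjusted p = 0.888). Lamp1, the most abundant lysosomal membrane glycoprotein, was at 316, 332 and 315 CPM in male WT PBS, 352, 369 and 339.6 in WT Tau, 298, 339 and 361 in KO PBS and 344, 362 and 356 in KO Tau. The 6 Tau libraries and male KO PBS 753 were the 7 highest, close to KO PBS 752, and the change with Tau averaged over genotype was 0.08 (SE 0.06, edgeR unadjusted p = 0.183, adjusted p = 0.905). Cd68, a glycoprotein of the lysosomes of phagocytes, was at 8.55, 8.37 and 7.88 CPM in male WT PBS, 7.63, 7.72 and 7.48 in WT Tau, 5.53, 6.59 and 9.52 in KO PBS and 8.77, 8.70 and 9.32 in KO Tau. Male KO PBS alone spread from the lowest to the highest of these values, and the change with Tau was 0.06 (SE 0.12, edgeR unadjusted p = 0.587, adjusted p = 0.954). Group means of Scarb2, the receptor that carries glucocerebrosidase to lysosomes, ran over the 6 groups from 162 CPM (male KO PBS) to 209 CPM (female WT Tau).

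**Figure D2:**
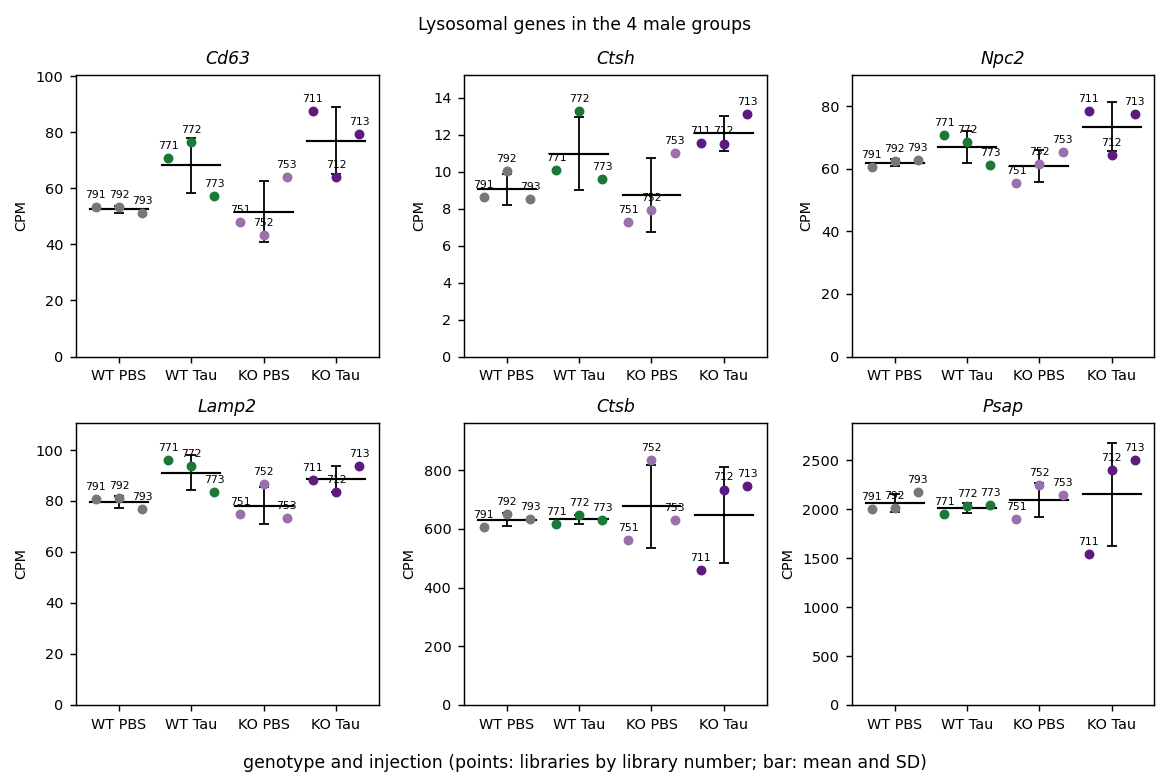
CPM of 6 members (vertical axes, starting at 0) in the 4 male groups (horizontal axes), with 1 point per library marked by its number and a bar for the mean and SD of 3 libraries. Cd63 in the 6 Tau libraries (57.1 to 87.4 CPM) lies above the 3 WT PBS libraries, and Ctsb and Psap of male KO Tau 711 lie below those of 712 and 713.

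Among proteases, the values with the smallest unadjusted p belonged to Ctsh, an aminopeptidase of the papain family. Ctsh stood at 8.61, 10.02 and 8.53 CPM in male WT PBS, 10.1, 13.3 and 9.60 in WT Tau, 7.25, 7.92 and 10.99 in KO PBS and 11.5, 11.5 and 13.1 in KO Tau. The KO Tau libraries lay above the KO PBS libraries without overlap, while in WT mice the ranges overlapped. The change with Tau averaged over genotype was 0.34 (SE 0.12, edgeR unadjusted p = 0.0158, adjusted p = 0.888). Ctss, the cathepsin that antigen-presenting cells and microglia use and that keeps its activity at neutral pH, was at 70.4, 85.9 and 70.5 CPM in male WT PBS, 91.4, 101 and 79.6 in WT Tau, 80.4, 57.2 and 88.7 in KO PBS and 122, 82.2 and 84.97 in KO Tau. Male KO Tau 711 was the highest and male KO PBS 752 the lowest, and the change with Tau averaged over genotype was 0.28 (SE 0.13, edgeR unadjusted p = 0.062, adjusted p = 0.888).

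Ctsb, a cysteine protease abundant in neurons, was at 608, 651 and 635 CPM in male WT PBS, 617, 648 and 632 in WT Tau, 564, 836 and 631 in KO PBS and 459.8, 734 and 748 in KO Tau. The lowest and 2 of the 3 highest of the 12 male libraries were KO Tau, and the highest was KO PBS 752. The fitted change for male KO Tau against male WT PBS was 0.04 (SE 0.18, edgeR unadjusted p = 0.824, adjusted p = 0.979). Without library 711, DESeq2 on only those groups gave 0.23 (SE 0.08, adjusted p = 0.0301). Ctsl, a second cysteine protease of the same family, was at 95.03, 87.98 and 91.8 CPM in male WT PBS, 103, 102 and 88.6 in WT Tau, 82.4, 94.7 and 89.5 in KO PBS and 88.8, 112 and 114 in KO Tau. Male KO Tau 712 and 713 exceeded all WT PBS libraries, and 711 did not. The change for male KO Tau against male WT PBS was 0.21 (SE 0.10, edgeR unadjusted p = 0.0662, adjusted p = 0.807), and without 711 DESeq2 gave 0.31 (SE 0.08, adjusted p = 0.00316). Of the exon bases of Ctsl 26.8% are shared with Gm47123 on the other strand, and of those of Ctsb 12.8% with Fdft1, and because the kit named for library preparation does not mark strand, reads of such genes cannot be told apart.

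Ctsd, the main aspartic protease of lysosomes, stood at 382, 389 and 400.2 CPM in male WT PBS, 383, 427 and 396 in WT Tau, 369.6, 392 and 453 in KO PBS and 358, 416 and 514 in KO Tau. Male KO Tau held both the lowest and the highest of these, and the change for male KO Tau against male WT PBS was 0.14 (SE 0.12, edgeR unadjusted p = 0.271, adjusted p = 0.865). Of its exon bases 34.4% are shared with another annotated gene on the same strand. Tpp1, a tripeptidase lost in a form of Batten disease, was at 76.8, 70.1 and 74.04 CPM in male WT PBS, 61.3, 73.4 and 68.8 in WT Tau, 58.4, 65.3 and 65.96 in KO PBS and 71.4, 65.7 and 72.1 in KO Tau. The 3 KO PBS libraries lay below the 3 WT PBS libraries without overlap, with a log2 fold change of -0.17 (SE 0.08, edgeR unadjusted p = 0.0735, adjusted p = 0.999). Ctsz, a carboxypeptidase, was at 43.6, 48.9 and 46.1 CPM in male WT PBS, 44.6, 53.9 and 46.8 in WT Tau, 40.5, 51.4 and 58.4 in KO PBS and 50.5, 51.9 and 64.3 in KO Tau. It had the smallest unadjusted p of the members for KO against WT averaged over treatment, at 0.19 (SE 0.10, edgeR unadjusted p = 0.0662, adjusted p = 0.945), with overlapping ranges. Ctsz and Ctsa lie on chromosome 2, as does Acss2. Group means of Ctsf, another papain-like cathepsin, ran from 57.7 CPM (female KO Tau) to 68.7 CPM (male KO Tau).

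Among enzymes of glycans, Idua, which removes iduronic acid from heparan and dermatan sulphate, stood at 19.6, 17.8 and 18.7 CPM in male WT PBS, 15.6, 17.9 and 17.4 in WT Tau, 14.3, 15.1 and 16.7 in KO PBS and 21.4, 16.4 and 19.9 in KO Tau. The 3 KO PBS libraries lay below the 3 WT PBS libraries, and 2 of the 3 KO Tau libraries lay above all of WT Tau. The log2 change was -0.23 (SE 0.11, edgeR unadjusted p = 0.0653, adjusted p = 0.999) for KO PBS against WT PBS, 0.28 (SE 0.11, edgeR unadjusted p = 0.0308, adjusted p = 0.584) for KO Tau against KO PBS, and 0.44 (SE 0.16, edgeR unadjusted p = 0.0194, adjusted p = 0.996) for the interaction. Of its exon bases 6.3% are shared with Dgkq and Slc26a1 on the other strand. Gla, the alpha-galactosidase lost in Fabry disease, was at 15.9, 14.9 and 15.8 CPM in male WT PBS, 18.9, 16.1 and 16.98 in WT Tau, 14.9, 17.5 and 14.2 in KO PBS and 10.98, 15.9 and 15.3 in KO Tau. KO Tau lay below WT Tau without overlap, with a log2 fold change of -0.28 (SE 0.14, edgeR unadjusted p = 0.073, adjusted p = 0.927). Group means over the 6 groups ran from 59.2 CPM (male KO PBS) to 79.9 CPM (female WT Tau) for Hexa, a subunit of hexosaminidase, from 8.65 CPM (female KO Tau) to 10.3 CPM (male WT Tau) for Naglu and from 5.45 CPM (male WT PBS) to 6.39 CPM (female WT Tau) for Sgsh, both of which degrade heparan sulphate. For the sialidase Neu1 they ran from 50.7 CPM (female KO Tau) to 65.5 CPM (male KO PBS), for the alpha-mannosidase Man2b1 from 58 CPM (female KO Tau) to 65.1 CPM (male KO Tau), and for the beta-mannosidase Manba from 11.4 CPM (male KO Tau) to 13.5 CPM (female WT Tau).

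Among genes of lipid handling, Npc2 and Npc1, which pass cholesterol out of lysosomes, varied over the male groups in different ways. Npc2 stood at 60.6, 62.5 and 62.8 CPM in male WT PBS, 70.9, 68.5 and 61.3 in WT Tau, 55.3, 61.6 and 65.5 in KO PBS and 78.3, 64.3 and 77.4 in KO Tau. The KO Tau libraries lay above WT PBS without overlap, with a log2 fold change of 0.25 (SE 0.10, edgeR unadjusted p = 0.0238, adjusted p = 0.783). Averaged over treatment, KO against WT was 0.09 (SE 0.07, edgeR unadjusted p = 0.209, adjusted p = 0.945). Npc1 was at 82.6, 88.2 and 76.2 CPM in male WT PBS, 91.8, 99.8 and 94.04 in WT Tau, 83.1, 84.5 and 108 in KO PBS and 91.5, 77.7 and 89.5 in KO Tau. WT Tau exceeded WT PBS without overlap while KO Tau and KO PBS overlapped, and the interaction was -0.33 (SE 0.16, edgeR unadjusted p = 0.0576, adjusted p = 0.996). Psap was at 2003, 2013 and 2171 CPM in male WT PBS, 1951, 2033 and 2042 in WT Tau, 1903, 2243 and 2144 in KO PBS and 1545, 2403 and 2505 in KO Tau. Male KO Tau held the lowest value and the 2 highest, and male KO Tau against male WT Tau was 0.12 (SE 0.16, edgeR unadjusted p = 0.467, adjusted p = 0.95).

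Without library 711, DESeq2 on only male KO Tau and male WT Tau called 3 members, all higher in KO Tau. These were Psap (log2 fold change 0.30, SE 0.07, adjusted p = 0.000441), Ctsb (0.24, SE 0.07, adjusted p = 0.00636) and Smpd1 (0.31, SE 0.09, adjusted p = 0.0143), the acid sphingomyelinase. The same kind of fit for male KO Tau against male WT PBS called 4 members (Cd63, Ctsb, Ctsl and Psap, the last at 0.25, SE 0.07, adjusted p = 0.0142). Those fits called 1377 (7.13%) and 1029 (5.33%) of all genes, beside 1 gene (Acss2) in the edgeR fit of all 12 male libraries. The test, the groups in the fit and library 711 all differ between these counts, and their parts cannot be told apart here. They leave 2 libraries in the KO Tau group, which are then assumed to vary as the other group does.

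Group means of the remaining lipid genes over the 6 groups ran from 33 CPM (female KO Tau) to 41.3 CPM (male WT PBS) for the arylsulphatase Arsa, from 27.9 CPM (male KO PBS) to 36.2 CPM (female WT Tau) for Galc, which degrades myelin galactolipid, from 19.2 CPM (male KO Tau) to 25.8 CPM (female WT Tau) for the acid lipase Lipa and from 103 CPM (male KO PBS) to 124 CPM (female WT Tau) for the thioesterase Ppt1. Grn, whose product progranulin is cut into granulins in lysosomes, was at 72.95, 64.5 and 77.8 CPM in male WT PBS, 66.5, 72.4 and 71.2 in WT Tau, 67.9, 48.2 and 77.2 in KO PBS and 61.1, 78.2 and 72.3 in KO Tau. All groups overlapped, and the change for male KO Tau against male WT PBS was -0.02 (SE 0.15, edgeR unadjusted p = 0.91, adjusted p = 0.99). Tfeb was at 10.4, 10.3 and 8.95 CPM in male WT PBS, 12.1, 12.4 and 9.25 in WT Tau, 8.17, 7.74 and 14.6 in KO PBS and 11.3, 9.12 and 11.6 in KO Tau. Male KO PBS held both the lowest and the highest value, and the change for male KO Tau against male WT PBS was 0.12 (SE 0.22, edgeR unadjusted p = 0.607, adjusted p = 0.946).

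The contrast with most differences was female against male mice within the Tau-injected groups, averaged over genotype. It was tested in a fit of the 11 Tau libraries (15419 genes). Of the 39 members 14 were called (35.9%), beside 23.8% of all genes tested. Of these, 8 were higher in females (11.4% of all genes were called higher) and 6 were lower (12.4% of all genes). At an unadjusted p under 0.05 stood 19 members and 39.8% of all genes. The 8 higher genes were Ctss, Ctsh, Ctsc, Npc2, Lamp2, Cd68, Gusb and Asah1. The 6 lower genes were Gaa, Mcoln1, Glb1, Smpd1, Psap and Ctsa. The ranges of the 5 female and 6 male libraries did not overlap for 6 members, beside 10.5% of all genes, and 5 of those 6 were among the genes called higher. The median over the 39 members was 0.04, beside -0.01 over all genes, since changes in both directions occurred. The count depended on single libraries, and the share over all genes moved with it. It was 4 members beside 3.99% of all genes without female WT Tau 331 (3 of the 14), 7 beside 10.3% without male WT Tau 773, and 8 beside 11.5% without male KO Tau 713. It was 9 beside 14.8% without 712, 9 beside 15.5% without female KO Tau 325, and 19 beside 40.7% without male KO Tau 711, which included all 14. Sex cannot be told apart from any difference in cohort or handling, since the labels number female and male libraries in separate series and give no dates.

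**Figure D3:**
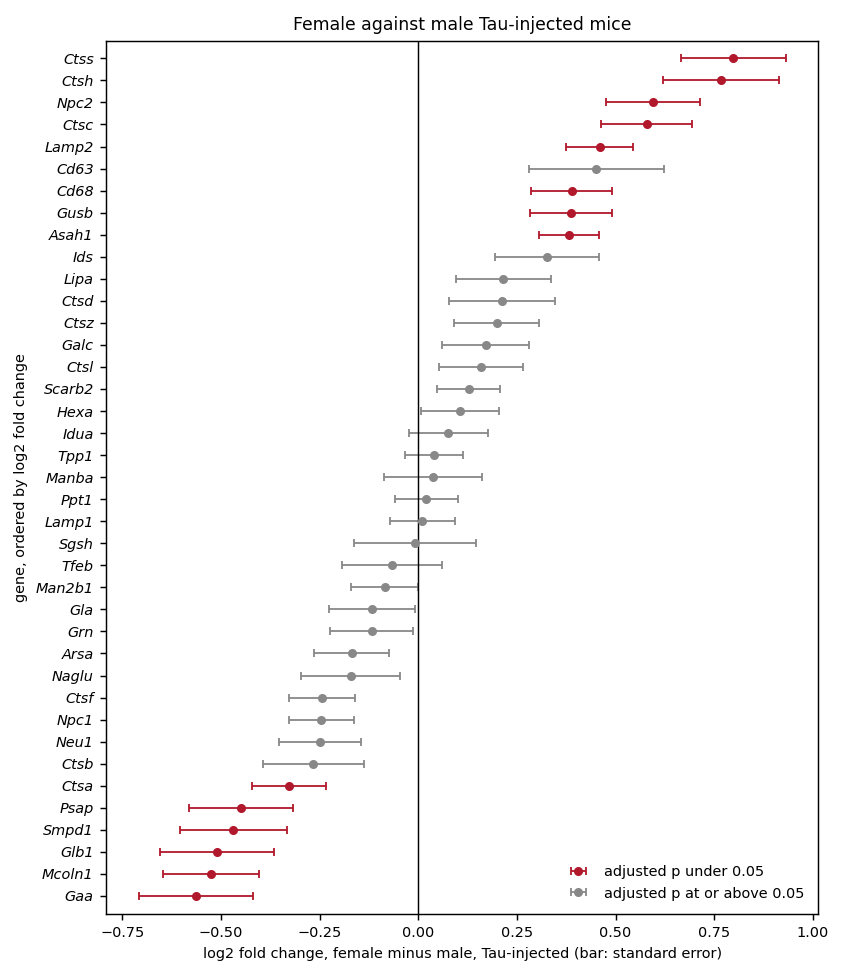
Log2 fold change of each of the 39 members between female and male Tau-injected mice (horizontal axis, positive where females are higher) with its standard error, ordered by value on the vertical axis, with the 14 genes at an adjusted p under 0.05 in red. Ctss (0.80) is at the top and Gaa (-0.56) at the bottom.

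Ctss, Ctsh and Ctsc, cathepsins expressed in microglia and other myeloid cells, were among the genes that were higher in females. Ctss stood at 197 and 153 CPM in female WT Tau and 132, 179 and 188 in KO Tau, against 79.6 to 122 CPM in male Tau libraries. The ranges did not overlap, and the nearest male library was KO Tau 711. Its log2 fold change was 0.80 (SE 0.13, adjusted p = 0.00602) with edgeR. Ctsh stood at 27.03 and 18.6 CPM in female WT Tau and 13.2, 20.4 and 22.2 in KO Tau, against 9.60 to 13.3 in male Tau libraries, with female KO Tau 314 inside the male range, and changed by 0.77 (SE 0.15, adjusted p = 0.00852) with edgeR. Ctsc, which activates granule serine proteases, stood at 19.2 and 18.1 CPM in female WT Tau and 14.3, 17.4 and 18.97 in KO Tau, against 9.28 to 14.3 CPM in male Tau libraries. Female KO Tau 314 (14.31 CPM) and male WT Tau 772 (14.30 CPM) met at the edge of ranges that did not overlap. Its change was 0.58 (SE 0.12, adjusted p = 0.00954) with edgeR. Ctsa was called lower, as given below. The abundant cathepsins Ctsb, Ctsd and Ctsl were not called: Ctsb (615 and 579 CPM in female WT Tau and 449.8, 545 and 567 in KO Tau) differed by -0.27 (SE 0.13, adjusted p = 0.145), Ctsd (575 and 474 CPM in female WT Tau and 366, 588 and 501 in KO Tau) by 0.21 (SE 0.13, adjusted p = 0.258) and Ctsl (146 and 117 CPM in female WT Tau and 84.5, 114 and 123 in KO Tau) by 0.16 (SE 0.11, adjusted p = 0.281) in the edgeR fit. Ctsz stood at 72.9 and 62.6 CPM in female WT Tau and 44.6, 63.1 and 64.99 in KO Tau, and Tpp1 at 80.3 and 69.2 CPM in female WT Tau and 68.96, 70.7 and 80.6 in KO Tau, both overlapping male Tau libraries.

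Among membrane and lipid genes, Lamp2, Npc2, Cd68 and Asah1 were higher in females. Lamp2 stood at 156 and 122 CPM in female WT Tau and 107, 117 and 139 in KO Tau, against 83.5 to 96.2 CPM in male Tau libraries, without overlap, and changed by 0.46 (SE 0.08, adjusted p = 0.00754) with edgeR. Lamp2 is on the X chromosome, as are Gla (17.4 and 15.1 CPM in female WT Tau and 12.8, 13.7 and 15.6 in KO Tau, not called) and Ids. Npc2 stood at 142 and 99.3 CPM in female WT Tau and 78.3, 106 and 122 in KO Tau, against 61.3 to 78.3 CPM, and its female range touched male KO Tau 711 alone, with a change of 0.59 (SE 0.12, adjusted p = 0.00965) with edgeR. Asah1, the acid ceramidase, had 78.7 and 62.3 CPM in female WT Tau and 53.2, 55.3 and 69.2 in KO Tau, against 45.9 to 48.9 CPM, without overlap, and changed by 0.38 (SE 0.08, adjusted p = 0.00977) with edgeR. Gusb, the beta-glucuronidase, had 25.2 and 19.2 CPM in female WT Tau and 16.9, 23.3 and 24.6 in KO Tau, against 14.6 to 16.5 CPM, also without overlap, with a change of 0.39 (SE 0.10, adjusted p = 0.0238) in edgeR. Cd68 had 14.6 and 11.8 CPM in female WT Tau and 8.95, 11 and 9.14 in KO Tau, against 7.48 to 9.32 CPM. Its 2 female WT values were the highest and 2 of its 3 female KO values lay inside the male range, and its change averaged over genotype was 0.39 (SE 0.10, adjusted p = 0.0223) with edgeR. Cd63 (138 and 79.9 CPM in female WT Tau and 67.8, 107 and 125 in KO Tau) was not called, at 0.45 (SE 0.17, adjusted p = 0.0729) with edgeR, and its ranges overlapped. Ids, an iduronate sulphatase, did not overlap between the sexes (570.2 to 797 CPM in females, 391 to 533 CPM in male Tau libraries) but was not called, at 0.33 (SE 0.13, adjusted p = 0.0903) with edgeR. Its group means over the 6 groups ran from 404 CPM (male KO PBS) to 665 CPM (female KO Tau).

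The 6 genes that were lower in females included Psap, the most abundant member. It stood at 1628 and 1709 CPM in female WT Tau and 1421, 1587 and 1548 in KO Tau, against 1545 to 2505 CPM in male Tau libraries, and fell by 0.45 on the log2 scale (SE 0.13, edgeR adjusted p = 0.0335). Gaa, the acid alpha-glucosidase that degrades glycogen, stood at 229 and 297 CPM in female WT Tau and 282, 313 and 268 in KO Tau, against 263 to 438 CPM, with a change of -0.56 (SE 0.15, adjusted p = 0.0217) in edgeR. Smpd1 stood at 89.3 and 96.6 CPM in female WT Tau and 82, 81.7 and 83.5 in KO Tau, against 78.4 to 144 CPM, with a change of -0.47 (SE 0.14, adjusted p = 0.0321) in edgeR. In all 3 genes the only male value inside or below the female range was that of KO Tau 711.

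The other genes lower in females were less abundant. Mcoln1 stood at 43.5 and 41.04 CPM in female WT Tau and 37.9, 39.3 and 34.3 in KO Tau, against 40.2 to 63.0 CPM in male Tau libraries, with a change of -0.53 (SE 0.12, adjusted p = 0.0152) in edgeR. Glb1, the beta-galactosidase whose activity is used as a marker of senescent cells, stood at 16.1 and 17.1 CPM in female WT Tau and 15.2, 16.5 and 15.2 in KO Tau, against 14.9 to 27.7 CPM, and changed by -0.51 (SE 0.14, adjusted p = 0.0298) with edgeR. Ctsa, a carboxypeptidase that protects Glb1 and Neu1 in a complex, stood at 83.99 and 83.2 CPM in female WT Tau and 71.99, 73.7 and 79.7 in KO Tau, against 76.4 to 109 CPM, with a change of -0.33 (SE 0.09, adjusted p = 0.03) in edgeR. Of its exon bases 17.4% are shared with Neurl2 and Pltp on the other strand. For 4 of the 6 lower genes male KO Tau 711 lay inside the female range, for Glb1 and Smpd1 it lay below it, and the other 5 male Tau libraries lay inside it for 0 of the 6. Without 711 the ranges of 15 of the 39 members did not overlap, beside 23.8% of all genes, and 12 of the 15 were among the called genes. Across 21 alternatives to the main fit, Psap was called in 7, and Smpd1 and Ctsa in 8 each. Glb1 was called in 10, Gaa in 13 and Mcoln1 in 19. The genes higher in females were called in 13 (Gusb) to 20 (Ctss and Ctsc) of the 21.

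Of the called genes, those not yet given by library in males varied among the male groups as follows. Ctsc stood at 8.88, 10.2 and 7.995 CPM in male WT PBS, 11.3, 14.3 and 10.1 in WT Tau, 8.98, 5.80 and 10.9 in KO PBS and 11.1, 9.28 and 12 in KO Tau. Asah1 stood at 50.3, 44.6 and 42.4 CPM in male WT PBS, 48.9, 46.9 and 45.9 in WT Tau, 37.6, 46.9 and 39.3 in KO PBS and 46.05, 47.4 and 48.3 in KO Tau. Gusb stood at 14.4, 16.1 and 15.3 CPM in male WT PBS, 16.5, 16.1 and 14.6 in WT Tau, 12.5, 15.2 and 16.5 in KO PBS and 16.4, 16.1 and 16.2 in KO Tau. For Asah1 and Gusb all 6 male Tau libraries lay within the range of the 6 PBS libraries, and for Ctsc male KO PBS 752 was the lowest and WT Tau 772 the highest. Gaa stood at 408, 416 and 486 CPM in male WT PBS, 368, 409 and 438 in WT Tau, 442, 314 and 467 in KO PBS and 263, 429.6 and 431 in KO Tau. Smpd1 stood at 113, 115 and 126 CPM in male WT PBS, 112, 108 and 119 in WT Tau, 107, 118 and 118 in KO PBS and 78.4, 144 and 134 in KO Tau. Mcoln1 stood at 60.5, 56.2 and 62.5 CPM in male WT PBS, 53.2, 49.7 and 58.6 in WT Tau, 44.5, 60.9 and 53 in KO PBS and 40.2, 62.95 and 62.6 in KO Tau. Male KO Tau 711 was the lowest male library for these 3 genes, and 712 was the highest for Smpd1 and Mcoln1. Glb1 stood at 23.8, 21.9 and 27.3 CPM in male WT PBS, 20.7, 19.7 and 22.7 in WT Tau, 19.02, 24.4 and 22.7 in KO PBS and 14.9, 25.9 and 27.7 in KO Tau. Ctsa stood at 99.7, 99.6 and 98.1 CPM in male WT PBS, 86.95, 103 and 97.6 in WT Tau, 81.1, 92.97 and 100.0 in KO PBS and 76.4, 96.98 and 109 in KO Tau. For both, KO Tau 711 was again the lowest of the male libraries and KO Tau 713 the highest.

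**Figure D4:**
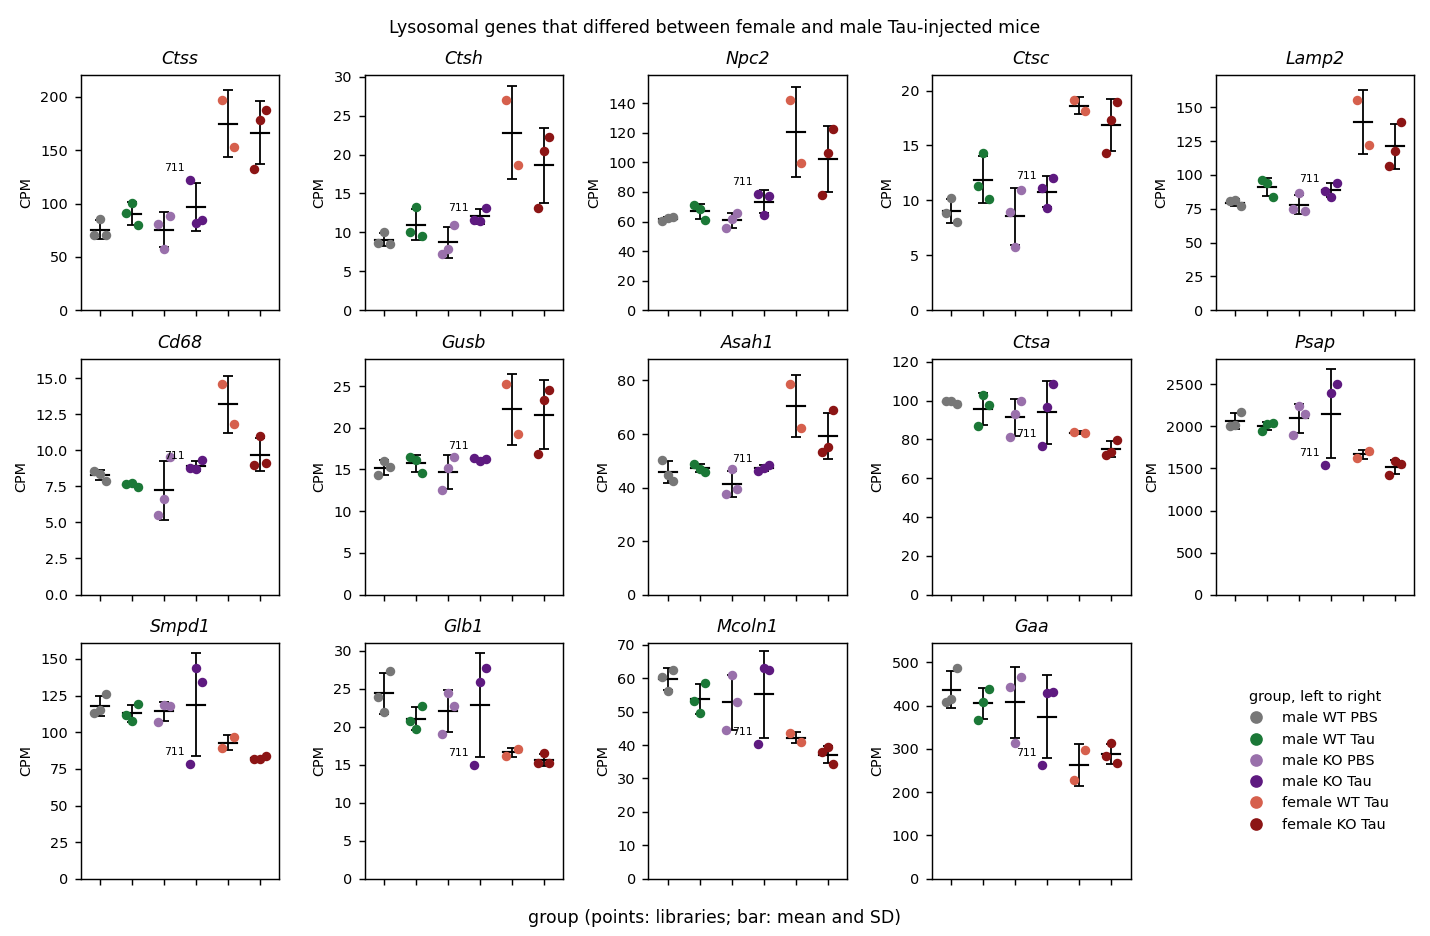
CPM of the 14 members called between female and male Tau-injected mice (vertical axes, starting at 0), with 1 point per library, a bar for the mean and SD of each group, groups in the order of the legend, and library male KO Tau 711 marked. Female group means lie above male ones in the 8 panels from Ctss to Asah1 and below them in the 6 panels from Ctsa to Gaa, where 711 lies with the females.

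The sign was the same in both genotypes for all 14 called genes, and for 32 of the 39 members, when female and male mice were compared within WT and within KO in the same fit. The 14 had been called on the average of the WT and KO differences, so their agreement in sign was largely set by that choice. The share over all genes was not counted. For Cd68 the value was 0.71 (SE 0.15) in WT and 0.07 (SE 0.14) in KO, the latter below its SE. In those comparisons edgeR called 0 members in WT, beside 0.37% of all genes, with 14 members and 22.9% of genes at an unadjusted p under 0.05. In KO it called 3 members, beside 6.33% of all genes, with 16 members and 29.5% of genes at an unadjusted p under 0.05, and without male KO Tau 711 it called 14 members beside 32.1% of all genes. The members Lamp1 (468 and 367 CPM in female WT Tau and 318, 315 and 371 in KO Tau), Grn (64.8 and 77.9 CPM in female WT Tau and 56.6, 75.04 and 60.6 in KO Tau) and Tfeb (12.6 and 9.79 CPM in female WT Tau and 8.81, 11.6 and 11.8 in KO Tau) were not called, at 0.01 (SE 0.08, adjusted p = 0.942), -0.12 (SE 0.10, adjusted p = 0.423) and -0.07 (SE 0.13, adjusted p = 0.721) with edgeR. Npc1 (88.1 and 74.6 CPM in female WT Tau and 82.5, 78.5 and 75.01 in KO Tau) was at -0.25 (SE 0.08, adjusted p = 0.0517), and Idua (19.2 and 19.99 CPM in female WT Tau and 22, 18.4 and 20.3 in KO Tau) was at 0.08 (SE 0.10, adjusted p = 0.591).

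Promoter letters were set beside the direction of the difference between the sexes. Of the 6 genes called lower in females 4 (Mcoln1, Gaa, Glb1 and Ctsa) held TCACGTG in a window, as shown above. Of the 8 called higher, 6 had a window, and 0 of these held it. Of the 23 members with a window that were not called, 6 held it. The median log2 difference, female minus male, was -0.17 over the 10 members with TCACGTG, of which 8 were lower, and 0.13 over the 25 with a window but without it, of which 7 were lower. Over all 11742 tested genes with a window, 6.53% held TCACGTG, the medians were -0.03 with it and -0.01 without it, and 6.70% of genes called lower and 5.79% of genes called higher held it. These are counts over chosen genes and carry no test.

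Within females, KO Tau against WT Tau called 0 of 39 members and 0.00649% of all genes (Acss2), with 1 member (Cd68) and 2.89% of genes at an unadjusted p under 0.05. Cd68 was lower in female KO Tau, at -0.39 (SE 0.15, edgeR unadjusted p = 0.0259, adjusted p = 0.997), and all 3 KO values lay below both WT values. Lamp1 followed at -0.27 (SE 0.12, edgeR unadjusted p = 0.0501, adjusted p = 0.997), where female KO Tau 325 lay above female WT Tau 341. Of the 39 members 31 were lower and 8 higher in female KO Tau, while 47.96% of all genes were higher. The median over members was -0.10, beside -0.01 over all genes. Markers moved beside this: oligodendrocyte markers were lower in 10 of 10 (median -0.47), dentate granule cell markers in 8 of 8 (median -0.41), choroid plexus markers were higher in 10 of 10 (median 1.13), and astrocyte markers were lower in 9 of 10 (median -0.07) and endothelial markers in 5 of 8 (median -0.29). Thalamus and striatum markers were lower in 5 of 9 (median -0.60) and border macrophage markers in 5 of 6 (median -0.39). Inhibitory neuron markers were lower in 6 of 8 (median -0.17) and microglia markers in 9 of 15 (median -0.08). CA1 markers were higher in 5 of 6 (median 0.39) and CA3 markers in 5 of 6 (median 0.09). Of these lists 0 markers were called by edgeR, and 1 oligodendrocyte and 2 endothelial markers had an unadjusted p under 0.05. Their part in this was not tested. Leaving out female WT Tau 331, which leaves 1 library in that group, brought the median to -0.03. The sex by genotype interaction under Tau called 0 members and 0% of genes, with 1 member (Cd68) and 2.94% of genes at an unadjusted p under 0.05. For Cd68, where KO Tau was above WT Tau in males without overlap and below it in females, the interaction was -0.64 (SE 0.21, edgeR unadjusted p = 0.00943, adjusted p = 0.978). DESeq2 and limma voom called 0 members in both of these comparisons. The next smallest p in the interaction was that of Ctsz, at -0.41 (SE 0.22, edgeR unadjusted p = 0.0825, adjusted p = 0.978).

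Other genes of the lysosomal pathway were counted from lists outside the 39 members. Between female and male Tau-injected mice, edgeR called 12.4% of all genes lower and 11.4% higher in females, beside which the counts of each list stand. It called 6 of 16 tested V-ATPase subunits lower and 1 higher, with a list median of -0.31, and Atp6v1g2, a neuronal subunit, was at -0.58 (SE 0.12, edgeR adjusted p = 0.0103). Of 23 other lysosomal hydrolases and cofactors 2 were called higher and 4 lower, among them Plbd2 at -0.55 (SE 0.09, edgeR adjusted p = 0.00628). Of 15 other lysosomal membrane proteins 1 was higher and 2 lower (Laptm4b, -0.39 (SE 0.11, edgeR adjusted p = 0.0269)), and of 12 genes that deliver enzymes to lysosomes 0 were higher and 3 lower (Gga3, -0.50 (SE 0.09, edgeR adjusted p = 0.00772)). Of 20 tested genes of Tfeb's family and of mTORC1 control 1 was higher (Fnip1, 0.37 (SE 0.09, edgeR adjusted p = 0.0146)) and 3 lower. Of 4 cystatins, which inhibit cathepsins, 1 was higher, Cst7, at 2.58 (SE 0.41, edgeR adjusted p = 0.0047). In the other 10 comparisons 0 genes of these 6 lists were called by edgeR, and at most 3 genes of any list had an unadjusted p under 0.05. For Tau against PBS averaged over genotype in males the smallest unadjusted p values were those of Cd164, a lysosomal sialomucin, at 0.17 (SE 0.05, edgeR unadjusted p = 0.00649, adjusted p = 0.888), and of Sorl1, a sorting receptor, at -0.30 (SE 0.11, edgeR unadjusted p = 0.0159, adjusted p = 0.888). Sorl1 was at -0.57 (SE 0.15, edgeR unadjusted p = 0.00266, adjusted p = 0.55) for male KO Tau against male KO PBS. For male KO PBS against male WT PBS it was at 0.41 (SE 0.15, edgeR unadjusted p = 0.0197, adjusted p = 0.999). Its genotype by treatment interaction was -0.55 (SE 0.21, edgeR unadjusted p = 0.0246, adjusted p = 0.996), so the average does not describe both genotypes.

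Markers of cell types moved between the same libraries. Summed microglia markers were at 755 to 944 CPM in female libraries, at 574 to 648 CPM in 5 male Tau libraries and at 782 CPM in male KO Tau 711, and 8 of 15 were called higher in females. Border macrophage markers summed to 10.9 to 23.8 CPM in females and 4.92 (711) to 11.8 CPM in male Tau libraries, with 5 of 6 called higher. Astrocyte markers summed to 8807 to 10010 CPM in females, 4452 to 5292 CPM in the 5 male Tau libraries and 8239 CPM in 711, with 6 of 10 called higher. Endothelial markers had 5 of 8 called higher (272 to 371 CPM in females, 179 to 212 CPM in the 5 male Tau libraries, 283 CPM in 711). Of inhibitory neuron markers 5 of 8 were called lower (509 to 715 CPM in females, 939 to 1082 CPM in the 5 male Tau libraries, 645 CPM in 711). CA1 pyramidal cell markers had 2 of 6 called lower (376 to 746 CPM in females, 605 to 811 CPM in the 5 male Tau libraries, 900 CPM in 711). In border macrophage and CA1 markers 711 thus did not lie with the females. Oligodendrocyte markers had 1 of 10 called higher and thalamus and striatum markers 2 of 9. Of dentate granule cell, CA3 and choroid plexus markers 0 were called. Among males, choroid plexus markers summed to 4081 CPM in KO Tau 713 and 586 CPM in WT Tau 772, against 25.7 to 294 CPM in the other 10, and 8 of 10 had an unadjusted p under 0.05 for Tau against PBS. No marker was at 0 in any library, no member belonged to these lists, and the part of cell composition in the differences above was not tested.

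**Figure D5:**
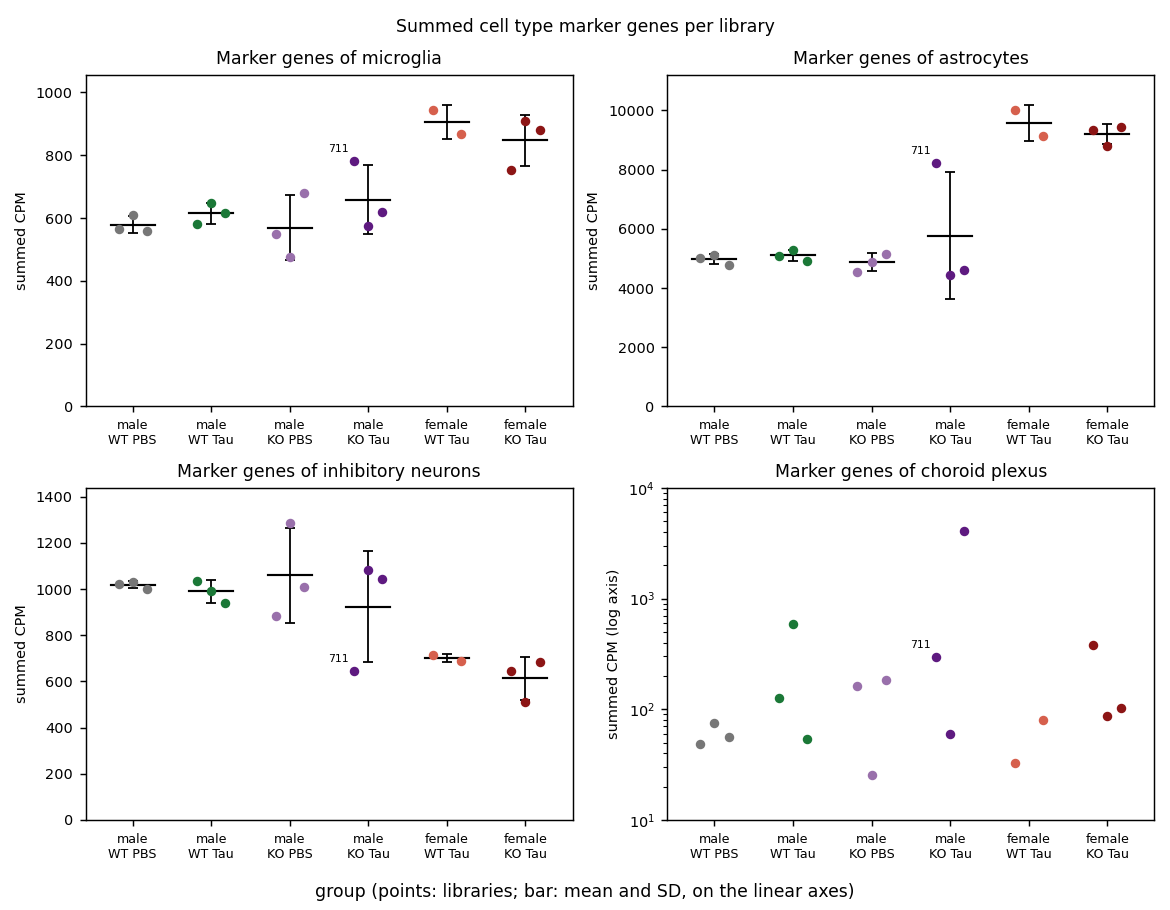
Summed CPM of marker genes of microglia (15 genes), astrocytes (10), inhibitory neurons (8) and choroid plexus (10, log axis) in the 6 groups, with 1 point per library and, on the linear axes, a bar for the mean and SD. Male KO Tau 711 lies near the female libraries for the first 3 lists, and choroid plexus markers in 713 reach 4081 CPM.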

How the data were processed

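Per the labels and the study's methods, poly(A) RNA was sequenced, reads were aligned with STAR 2.5.2 to GRCm38, and HTSeq 0.9.1 counted them over exons in reverse-stranded mode, while the kit named does not mark strand. The annotation release is not given in the sources used here. The authors deposited whole-number counts of reads for each gene symbol, which they had not normalized. Positions and lengths came from GENCODE M21, in which 98.5% of symbols were found (23607 by name, 512 by an older name).

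Counts were tested in R 4.3.3 with edgeR 4.0.16 (TMM factors 0.955 to 1.07, filterByExpr with minimum count 10 and minimum total count 15, quasi-likelihood F-test, two-sided, Benjamini-Hochberg adjustment over all genes, threshold 0.05). Male contrasts came from 1 fit of 12 libraries and the others from 1 fit of 11 Tau libraries, in 11 comparisons. Adjusted p values are edgeR's unless DESeq2 is named. CPM is scaled to the library's total counts. Alternatives were DESeq2 1.42.0, RLE factors, no count filter, all 17 libraries, limma 3.58.1 voom with quality weights, 1 surrogate variable (sva 3.50.0), length and GC offsets (splines with 5 degrees of freedom), only the groups compared, and each library left out. Fits were checked on simulated counts.

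Values in every library are given for Lamp1, Ctsd, Ctsb, Ctsl, Ctss, Cd68, Grn, Psap and Tfeb, for members called in any comparison, and for the 2 members with the smallest unadjusted p in each. Members and lists were chosen with earlier results of these data known. The labels call the libraries biological replicates, and p values measure the spread between them. The authors' test was DESeq2 on male libraries, with 2 in the KO Tau group and 3 in each of the others, whereas all 3 deposited KO Tau libraries were used here. The sources used here do not name a library the authors left out. For male KO Tau against male WT PBS the paper reports 1029 genes. DESeq2 on only those groups called 1029 genes without male KO Tau 711 and 52 without 712. For male KO Tau against male WT Tau, DESeq2 called 1377 without 711, close to the count in the paper. With all 3 KO Tau libraries, the edgeR fit of male libraries, which differs also in test and in groups held, called 1 gene in each of these comparisons. The counts in the paper were thus met or nearly met by leaving out 711. No columns were left out.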

Additional observations from a re-analysis of the deposited data

How the results depend on the processing

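No direction of a called result reversed under any alternative. Each comparison was followed for its called members and those with its smallest unadjusted p. Under the alternatives, 669 of their values kept their direction and side of the threshold, 92 kept the direction but were no longer past it, and 3, all of Cd63, newly passed. Most of the 669 had never been past the threshold. The 92 all belonged to the 14 members called between female and male Tau mice. Each of the 14 was followed under 21 alternatives and stayed called in 7 (Psap) to 20 (Ctss and Ctsc). The number of members called rose above 0 in male comparisons only with DESeq2 on the groups compared with 1 library left out: 1 for male WT Tau against male WT PBS without 773, 4 without 711 and 1 without 712 for male KO Tau against male WT PBS, and 3 without 711 for male KO Tau against male WT Tau. The cause was not tested. Between female and male Tau mice the 14 became 20 with voom weights, 19 with all 17 libraries, 17 with DESeq2, 11 with length and GC offsets, 8 with 1 surrogate variable, 3 in KO mice alone and 0 in WT mice alone, which hold fewer samples (both chosen after seeing the data), and 4 to 19 with each library left out. Of the 14, 9 stayed called with length and GC offsets and 7 with the surrogate variable. Most of the losses fell on the genes lower in females. Of those, only Mcoln1 and Glb1 stayed called with the offsets, and only Mcoln1 with the surrogate variable. Of the genes higher in females, only Lamp2 was lost with the offsets, and only Gusb and Cd68 with the surrogate variable. The median over members for male KO Tau against male KO PBS was 0.05 and became 0.13 with voom weights and 0.13 with DESeq2 on those groups without 711, and it ran from -0.0003 to 0.1321 with each library left out. For the male interaction the median of 0.05 ran from -0.0344 (without 713) to 0.0993. Over all genes, counts of calls moved most for female against male mice (3674, from 57 in WT alone to 6290 without 711), male KO Tau against male WT PBS (1, up to 1029) and against male WT Tau (1, up to 1377), and in smaller steps for male WT Tau against male WT PBS (0, up to 275), male KO PBS against male WT PBS (1, up to 221), male KO Tau against male KO PBS (0, up to 37), female KO Tau against female WT Tau (1, up to 39) and KO against WT (1, up to 10). Tau against PBS and the sex by genotype interaction reached 1 with DESeq2. No paired analysis was possible because the groups share no replicate numbers. Depth limited little, as every member had at least 72 counts in each library.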
